A study of Mus musculus with 250 samples.

Results

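The cells described here are astrocytes of the mouse brain at both ends of metallothionein expression, 166 of 250 single cells. Each cell was scored from its mRNA for the metallothioneins Mt1, Mt2 and Mt3. The score was the mean of the z values (the distance from the plate mean in SDs) of log2(CPM + 1), where CPM is a gene's reads per 1000000 reads of the cell. Of each of 2 plates, 1 in 3 cells with the highest and 1 in 3 with the lowest score were taken. These 83 high cells and 83 low cells were compared over all other genes, and the 84 middle cells were left out of the ratios. Plate 2 gave 54 high, 54 middle and 54 low cells, and plate 3 gave 29 high, 30 middle and 29 low cells.

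All cells came from the brains of adult C57BL/6 mice, about 3 months old, of genotype SM22-Cre;Rosa26-stop-tdTomato, and none received a treatment that the labels record. In these mice Cre is made under the promoter of the smooth muscle gene for SM22 and switches on the red fluorescent protein tdTomato. Cells were sorted by fluorescence into wells, and the Smart-seq2 method made full-length cDNA from the polyadenylated RNA of each cell. The names in the tables' headers contain VSMC2 or VSMC3, taken here as plates 2 and 3, while the sample titles call the cells astrocytes. The gate used for sorting was not given in the sources used here. No label names an animal, so the cells form 1 group in which no replicates are known, and nothing was tested. Every difference below is a description of these cells, and a result seen on both plates is 1 description made on 2 sets of cells that may come from the same animals.

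The astrocyte title was checked on 16 marker genes, among them the water channel Aqp4, the glutamate transporters Slc1a2 and Slc1a3 and the gap junction gene Gja1. High and low cells had between 12 and 16 of the 16 markers at 10 CPM or more, with medians of 15 and 14 on plate 2 and of 15 and 15 on plate 3. Median reads per cell were 258375 in high and 257404 in low cells of plate 2, and 350659 and 391193 on plate 3. Median numbers of genes detected were 2403 and 2294 on plate 2, but 2342 and 2525 on plate 3, so the order of high and low cells differed between the plates. With every cell thinned to 100000 reads the medians were 2565 and 2463 genes on plate 2 and 2576 and 2684 on plate 3.

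Metallothioneins are small cysteine-rich proteins that bind zinc and copper ions. Mt1 and Mt2 are made in many tissues and are induced by metals through the transcription factor MTF1, which binds metal response elements, and also by glucocorticoids and oxidative stress. Mt3 is made mainly in the brain, where it binds zinc and is not induced by metals in the way Mt1 and Mt2 are.

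The 3 genes lie side by side on chromosome 8 of GRCm38, all on the plus strand. Mt3 (ENSMUSG00000031760.9) spans 94152607 to 94154146, Mt2 (ENSMUSG00000031762.7) spans 94172664 to 94173568 and Mt1 (ENSMUSG00000031765.8) spans 94179082 to 94180327. There are 18517 bases between Mt3 and Mt2 and 5513 bases between Mt2 and Mt1, and the whole cluster covers 27721 bases. Their promoters are shown because the score puts all 3 genes together although their upstream sequences differ. Each is 280 bases of RefSeq sequence (GRCm38.p6, plus strand, 5′ to 3′), 250 before the start that RefSeq annotates and 30 from that start on, at chr8:94178839-94179118 for Mt1, chr8:94172368-94172647 for Mt2 and chr8:94152357-94152636 for Mt3. For Mt1 and Mt2 the RefSeq start differs from the gene positions above, which come from GENCODE. The Mt2 window ends before the GENCODE start at 94172664, so the matches found depend on which start is used. Capitals mark each match, on either strand, to the core of the metal response element, searched as TGCACNC or TGCGCNC.
Mt1: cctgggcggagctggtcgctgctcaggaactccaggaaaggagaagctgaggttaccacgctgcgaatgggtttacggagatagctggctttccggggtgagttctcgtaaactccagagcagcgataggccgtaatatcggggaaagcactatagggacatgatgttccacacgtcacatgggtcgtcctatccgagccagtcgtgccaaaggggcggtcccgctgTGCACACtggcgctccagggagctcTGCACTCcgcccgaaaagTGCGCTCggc
Mt2: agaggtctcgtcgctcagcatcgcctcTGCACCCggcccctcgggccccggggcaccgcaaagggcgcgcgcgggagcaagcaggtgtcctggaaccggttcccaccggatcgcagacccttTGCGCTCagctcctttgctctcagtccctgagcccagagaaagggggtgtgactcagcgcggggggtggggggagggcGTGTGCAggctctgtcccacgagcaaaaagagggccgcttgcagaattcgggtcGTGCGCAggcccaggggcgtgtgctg
Mt3: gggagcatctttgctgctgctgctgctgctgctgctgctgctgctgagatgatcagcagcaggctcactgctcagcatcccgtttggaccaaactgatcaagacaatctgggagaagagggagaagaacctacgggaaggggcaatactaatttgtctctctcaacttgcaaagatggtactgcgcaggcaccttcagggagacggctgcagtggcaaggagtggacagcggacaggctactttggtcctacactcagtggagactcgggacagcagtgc

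The Mt1 window held 3 matches, the Mt2 window 4 and the Mt3 window 0. Of 32851 mouse promoters of the same length, 24.1% held at least 1 match, 6.37% held 2 or more and 0.405% held 4 or more. The 30 bases after the start were added after a first search of the 250 bases before it, in which Mt1 had 1 match, Mt2 had 3 and Mt3 had 0, against 21.4% of promoters with a match. The antioxidant response element core TGACNNNGC occurred once in the Mt2 window and in neither of the others, against 11.5% of promoters. The full palindrome of the glucocorticoid response element was in 3 of all the promoters and in none of these. A match is a match of letters only, and a window without one says nothing of whether a factor binds there.

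The values of the metallothioneins themselves chose the cells and are given as a description. Mt1 ranged in plate 2 from 837 to 4036 CPM (median 1471, mean 1576 ± 598 SD, n = 54 cells) in high cells and from 110 to 1484 CPM (median 540, mean 543 ± 249, n = 54) in low cells. On plate 3 it ranged from 831 to 3026 CPM (median 1716, mean 1812 ± 558, n = 29) in high and from 218 to 1175 CPM (median 580, mean 580 ± 241, n = 29) in low cells. The ranges overlapped on both plates, although the medians were well apart. Mt2 had a median of 418 CPM (118 to 1376) in high and 148 CPM (0 to 659) in low cells of plate 2, and of 465 CPM (152 to 1506) and 133 CPM (9.63 to 301) on plate 3. Mt2 was the only one of the 3 that was under 10 CPM in some low cells: it was at 10 CPM or more in 51 of 54 low cells of plate 2 (94.4%, exact binomial 95% interval 84.6 to 98.8%) and in 28 of 29 of plate 3. Mt3 had a median of 659 CPM (165 to 2603) in high and 228 CPM (31.4 to 520) in low cells of plate 2, and of 757 CPM (235 to 1539) and 250 CPM (141 to 1036) on plate 3. The score ran on without a gap at either limit: the low cells of plate 2 ended at -0.29 with the next cell at -0.27, and the high cells began at 0.32 with the next cell below at 0.31. On plate 3 the low cells ended at -0.34 (next -0.30) and the high cells began at 0.42 (next 0.38).

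The ratio of mean levels, high over low, was 2.90 on plate 2 and 3.12 on plate 3 for Mt1, 2.86 and 3.98 for Mt2, and 3.21 and 2.46 for Mt3. Per kilobase of the union of annotated exons (1246 bases for Mt1, 588 for Mt2 and 1066 for Mt3) the mean level in high cells of plate 2 was 1265 CPM for Mt1, 812 for Mt2 and 679 for Mt3, and in low cells 435, 283 and 211. The order Mt1, Mt2, Mt3 held in high and low cells of plate 2 and in the high cells of plate 3, whereas in the low cells of plate 3 the values per kilobase were 465 CPM for Mt1, 228 for Mt2 and 299 for Mt3. For Mt1 that union is the whole gene, and which transcripts the cells made was not measured, so the order rests on these lengths. The 3 genes did not follow one another equally. Over the 162 cells of plate 2 Spearman's correlation was 0.52 for Mt1 with Mt2, 0.57 for Mt1 with Mt3 and 0.40 for Mt2 with Mt3, and over the 88 cells of plate 3 it was 0.74, 0.52 and 0.35. Cells of a plate share sorting and library preparation, and counts of 1 cell share its depth.

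**Figure D1:**
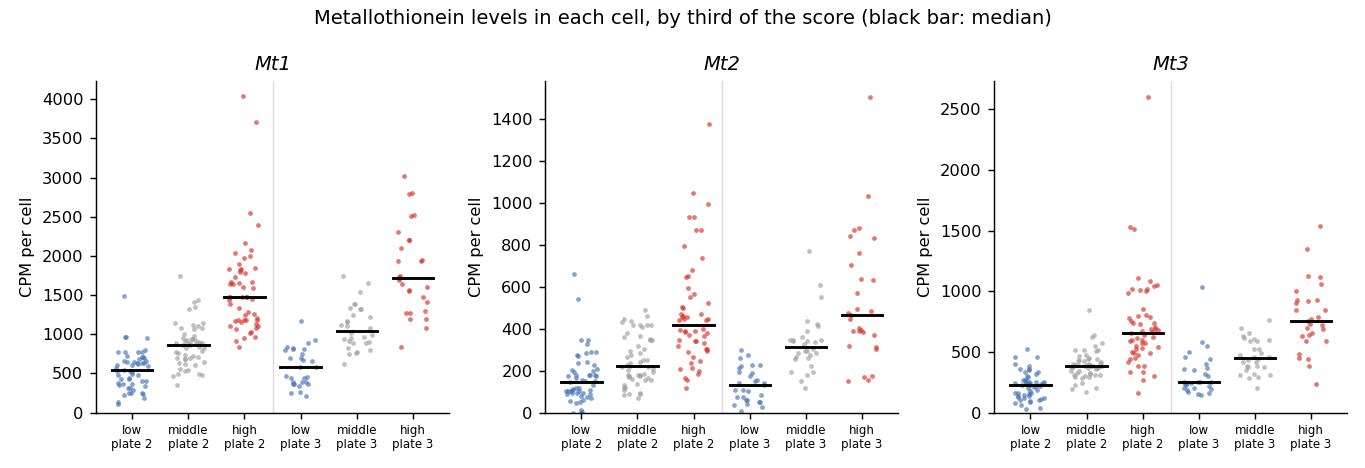
Each point is a cell, and the y axis gives CPM of Mt1, Mt2 or Mt3 in the low, middle and high cells of each plate, with the median as a black bar. The clouds overlap between neighbouring groups, and Mt1 medians are 540 and 1471 CPM in low and high cells of plate 2.

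For every other gene the ratio was log2 of (mean CPM + 1) in high cells over (mean CPM + 1) in low cells, on each plate. Of the 16367 genes with reads, 5076 were compared, those with a mean of at least 20 CPM on each plate and no single cell holding 10% or more of the gene's summed CPM over all 250 cells. A gene was counted as higher or lower when the ratio was at least 1.5-fold in the same direction on both plates. By this rule 293 genes (5.77%) were higher and 298 genes (5.87%) were lower in the high cells. Only 53.4% of the genes compared had the same direction on both plates, and across these genes Spearman's correlation between the plates' ratios was 0.07. Of the 972 genes (19.1%) that were 1.5-fold higher on plate 2, 30.1% were so on plate 3 too, where 23.4% of all genes were. For the 938 genes (18.5%) lower on plate 2 the share was 31.8%, against 26.8% of all genes. Most of the genes that either plate alone put past the fold were therefore not put past it by the other plate.

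Agreement between the plates was closest for abundant genes. Among 89 genes with a mean of 1000 CPM or more, 70.8% had the same direction and Spearman's correlation across genes was 0.47. Among 1455 genes between 20 and 50 CPM the share was 51.4% and Spearman's correlation was 0.02. Between these classes the share did not rise steadily with level: it was 57.7% from 200 to 500 CPM and 52.0% from 500 to 1000 CPM. Spearman's correlation in these was 0.19 and 0.31. The abundant genes also had the smallest ratios: 0 of the 89 were higher and 3 were lower by the 1.5-fold rule. These level classes were set after first results were seen.

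**Figure D2:**
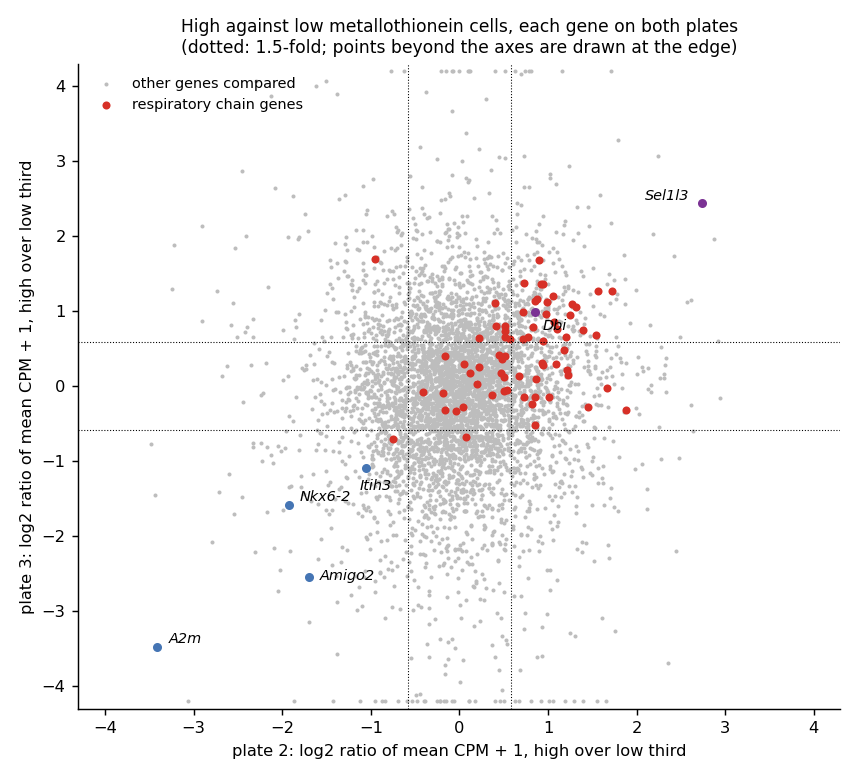
Each point is 1 of the 5076 genes compared, with the log2 ratio of mean CPM + 1, high over low cells, on plate 2 (x axis) and plate 3 (y axis), and dotted lines at 1.5-fold. The cloud is nearly round, while most respiratory chain genes (red) lie right of and above 0, and points beyond the axes are drawn at the edge.

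Of the lists examined, the respiratory chain had the most members higher in the high-metallothionein cells. The chain consists of complexes I to IV of the inner mitochondrial membrane, which pass electrons from food to oxygen and pump protons, and ATP synthase, which uses the proton gradient to make ATP. Of 84 nuclear genes listed by symbol, 68 were compared and 24 of these (35.3%) were at least 1.5-fold higher on both plates, against 5.77% of all genes compared. Only Atp5sl was lower on both, a gene that the symbol placed in the list although its protein is an assembly factor of complex I. At any size, 48 of 68 were higher on both plates and 5 were lower on both, against 25.9% and 27.5% of all genes. The median log2 ratio of the 68 was 0.80 on plate 2 and 0.41 on plate 3, while that of all genes compared was 0.00 and -0.03. Taken as a difference of mean log2(CPM + 1), the median of the 68 was 0.99 on plate 2 and 0.14 on plate 3, and 17 of 68 were higher. On plate 2, 40 of the 68 were 1.5-fold higher, and 24 of these 40 (60%) were so on plate 3, where 47.1% of the respiratory chain genes were.

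Summed over the list, respiratory chain message ranged in high cells of plate 2 from 6565 to 33122 CPM (median 12973, mean 13973 ± 4647 SD, n = 54) and in low cells from 4536 to 16896 CPM (median 9319, mean 9740 ± 3139, n = 54). On plate 3 it ranged from 7647 to 19714 CPM (median 13289, mean 13232 ± 3497, n = 29) in high and from 6843 to 14542 CPM (median 10618, mean 10659 ± 2282, n = 29) in low cells. The ranges overlapped widely, and the middle cells, with medians of 11146 and 11106 CPM, lay between. Without the 1 cell with the highest sum the count of genes higher was again 24. Spearman's correlation between the score and this sum was 0.48 over the 162 cells of plate 2 and 0.36 over the 88 of plate 3.

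Members of nearly every complex took part, but not evenly. Complex I, which takes electrons from NADH, had 11 of 34 compared genes higher, with medians of 0.80 and 0.54. Among them Ndufb3, an accessory subunit, had log2 ratios of 1.72 on plate 2 and 1.27 on plate 3, and Ndufv3 had 1.32 and 1.06. Complex II, succinate dehydrogenase, had 0 of 4 higher, with medians of 0.16 and 0.10. Complex III, which passes electrons to cytochrome c, had 4 of 7 higher. These were the small subunits Uqcr10 (1.39 and 0.75), Uqcr11 (1.56 and 1.26), Uqcrh (0.98 and 1.12) and Uqcrq (0.83 and 0.79), whereas the core subunits Uqcrc1 and Uqcrc2 and the iron-sulfur protein Uqcrfs1 were below 0 on both plates. Complex IV, cytochrome c oxidase, had 3 of 10 higher, Cox6c (1.06 and 1.20), Cox7a2 (0.92 and 1.36) and Cox8a (1.10 and 0.76). ATP synthase had 6 of 13 higher, Atp5e, Atp5g3, Atp5h, Atp5j, Atp5j2 and Atp5k, with log2 ratios between 0.66 and 1.54.

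Single members were low and uneven from cell to cell. Cox8a (chromosome 19, 7215153 to 7217616) had a median of 168 CPM (0 to 783, mean 208 ± 169 SD, n = 54) in high and 78.6 CPM (0 to 342, mean 96.6 ± 84.1, n = 54) in low cells of plate 2. On plate 3 its medians were 207 CPM (0 to 468, n = 29) and 108 CPM (0 to 355, n = 29). Cox8a was the respiratory chain gene with the largest Spearman correlation with the score by the smaller of both plates, 0.32 on each, and even so most of the range was shared by high and low cells. Uqcr11 was at 10 CPM or more in 43 of 54 high and 31 of 54 low cells of plate 2, but in 19 of 29 high and 21 of 29 low cells of plate 3.

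**Figure D3:**
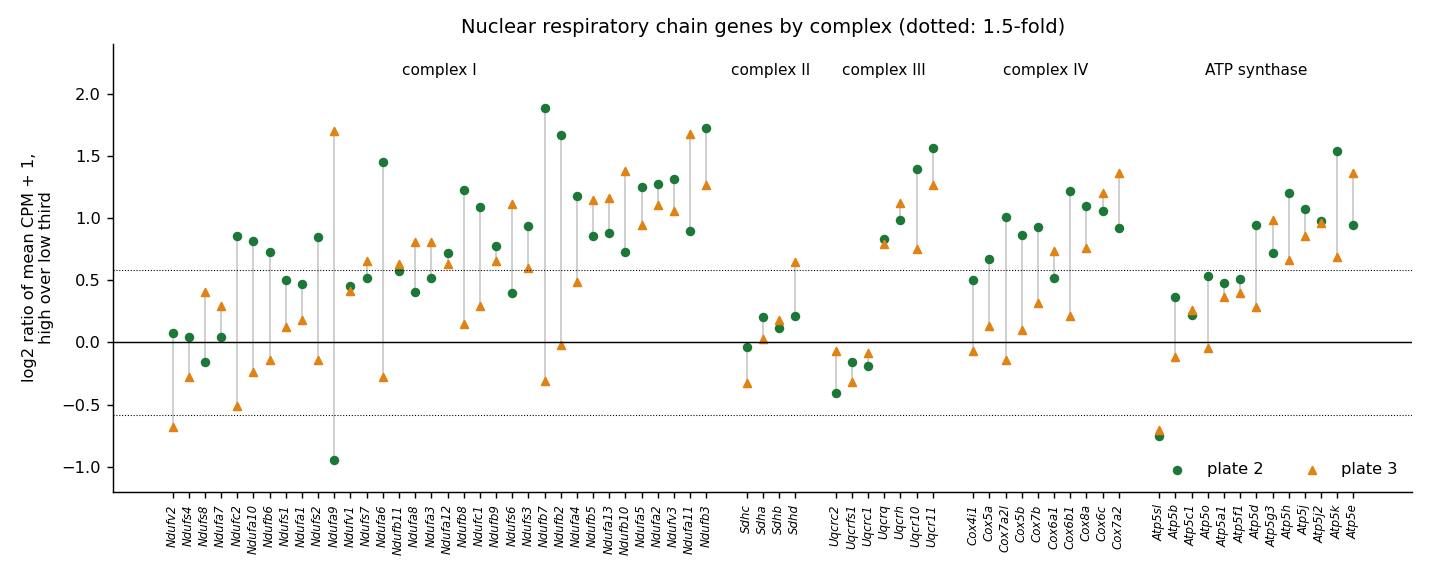
The y axis gives the log2 ratio of mean CPM + 1, high over low cells, of each of the 68 respiratory chain genes compared, grouped by complex, on plate 2 (circles) and plate 3 (triangles), with dotted lines at 1.5-fold. Complexes I, III, IV and ATP synthase have members above the line on both plates, complex II has none, and Atp5sl is below it on both.

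The respiratory chain result depended on which metallothionein scored the cells. With Mt3 alone 25 of 68 genes were higher, with Mt1 alone 13, with Mt1 and Mt2 together 9, and with Mt2 alone 2. The scores from Mt1 alone and from Mt2 alone were added after the other values were seen. Each choice still compared 83 high with 83 low cells, of which 66 high and 64 low cells were shared with the score of all 3 genes for Mt3, 66 and 64 for Mt1, and 57 and 55 for Mt2. By cell, Spearman's correlation with the summed respiratory chain level was 0.45 and 0.46 for Mt3 on plates 2 and 3, 0.47 and 0.24 for Mt1, and 0.16 and 0.12 for Mt2. Mt2 has the fewest reads of the 3 genes, and whether the lower counts have a part in this was not tested.

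Short transcripts as a class were also higher in the high cells. The metallothionein genes have 588 to 1246 exonic bases in that union, and the 68 respiratory chain genes have a median of 1034. Among other genes under 1 kb, 13.5% of 126 were higher on both plates, with medians of 0.38 and 0.22, while among other genes of 1 to 2 kb 5.35% of 823 were, with medians of 0.03 and 0.03. Within each of these classes the respiratory chain stood above the other genes: 45.2% of 31 were higher under 1 kb (medians 0.86 and 0.69) and 33.3% of 27 at 1 to 2 kb (medians 0.72 and 0.40). The share of a cell's reads in genes under 1 kb was computed with Mt2 and the short respiratory chain genes among them. It was 3.68 ± 0.90% (SD, n = 54) in high and 3.11 ± 0.68% (n = 54) in low cells of plate 2. On plate 3 it was 3.75 ± 1.02% and 3.19 ± 0.68% (n = 29 each). This share was also computed without the metallothioneins, but with the short respiratory chain genes kept in. Taken out of the score by a line within each plate, it left a respiratory chain count of 13 of 68. The medians were then 0.64 and 0.30. Because the share holds genes of the chain itself, what transcript length alone does to this count was not tested. The chain's count was 15 of 67 when cells with markers of another type were left out. The length classes and the correction for the share were chosen after first results were seen.

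**Figure D4:**
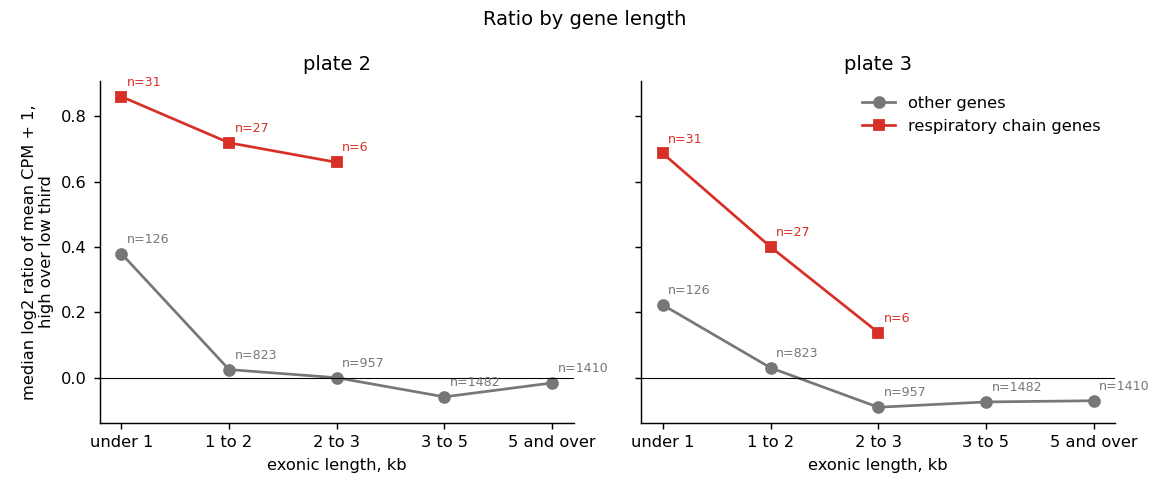
The y axis gives the median log2 ratio of mean CPM + 1, high over low cells, for respiratory chain genes (squares) and other genes (circles) in classes of exonic length in kb (x axis), with the number of genes beside each point. Classes with fewer than 6 respiratory chain genes have no square, and the squares lie above the circles in every class that has both.

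Outside the chain, the gene with the largest Spearman correlation with the score was Dbi (chromosome 1, 120113280 to 120121078), which encodes the acyl-CoA binding protein, also a ligand of the mitochondrial translocator protein. Dbi had a median of 784 CPM (7.95 to 2347, mean 838 ± 485 SD, n = 54) in high and 464 CPM (4.17 to 1567, mean 463 ± 299, n = 54) in low cells of plate 2. On plate 3 its medians were 867 CPM (0 to 3396, mean 1033 ± 679, n = 29) and 551 CPM (113 to 1107, mean 517 ± 229, n = 29). The groups overlapped over most of the range, and low cells did not reach the level of the highest high cells on either plate. Its log2 ratios were 0.85 and 1.00, and Spearman's correlation with the score was 0.39 on each plate. Dbi, like the other abundant genes of this paragraph that are in no list, was chosen after its values were seen. Vdac2, a channel of the outer mitochondrial membrane, had log2 ratios of 0.86 and 1.31, and Chchd10, a protein of the mitochondrial intermembrane space, had 1.02 and 0.77. Kcnk1, a potassium channel, was at 10 CPM or more in 41 of 54 high and 26 of 54 low cells of plate 2 and in 26 of 29 and 19 of 29 on plate 3, with log2 ratios of 0.81 and 1.03. Ddah1, which breaks down methylated arginines, had 0.68 and 0.71, and the calcium-binding S100a16 had 0.70 and 0.89.

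Of 20 compared genes for antioxidant defence and glutathione, 2 were higher and 2 were lower, near the 5.77% and 5.87% of all genes, and the list's medians were 0.24 and 0.01. The higher ones were Sod2, the manganese superoxide dismutase of mitochondria (1.08 and 0.80), and the mitochondrial peroxidase Prdx3 (0.98 and 1.16). Sod2 was at 10 CPM or more in 34 of 54 high and 19 of 54 low cells of plate 2 and in 16 of 29 and 10 of 29 on plate 3. The lower ones were Slc7a11, the cystine importer (-0.71 and -1.13), and Gsr, glutathione reductase (-1.75 and -1.43). Gsr was at 10 CPM or more in 8 of 54 high and 16 of 54 low cells of plate 2 and in 7 of 29 and 12 of 29 on plate 3, so in each group most cells lacked it.

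Counts in lists this small are to be read against the 5.77% of all genes that were higher and the 5.87% that were lower, and those of metal handling were near these shares. Of 20 genes of zinc handling 10 were compared, and 0 were higher and 0 lower, with medians of -0.05 and -0.34. Slc30a1, the zinc exporter of the cell membrane and like Mt1 a target of MTF1, was at 10 CPM or more in 13 of 54 high and 13 of 54 low cells of plate 2 and in 6 of 29 and 7 of 29 on plate 3, with log2 ratios of -0.03 and -0.38. The zinc importer Slc39a12 had -0.07 and -0.29. Mtf1 itself was under the minimum level on plate 2 and was not compared. Of 10 compared genes of copper and iron handling 1 was higher, the iron transporter Slc11a2 (1.69 and 1.49), which was at 10 CPM or more in 13 of 54 high against 5 of 54 low cells of plate 2 and in 8 of 29 against 3 of 29 on plate 3. The ferritin genes Fth1 (0.32 and 0.83) and Ftl1 (0.31 and 0.32), which encode the iron store, were above 0 on both plates without reaching 1.5-fold on both.

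Lists of signals known to induce metallothioneins also had counts near the shares of all genes, 5.77% higher and 5.87% lower, given how few of their members were compared. Of 12 compared genes of the glucocorticoid response 0 were higher and 0 lower, with medians of -0.13 and 0.03. Of 6 compared genes of STAT3 and cytokine signalling 0 were counted in either direction, with medians of 0.41 and -0.49. Of 5 immediate early and heat shock genes compared, Cryab, a small heat shock protein, was higher (1.05 and 0.66). Of 8 hypoxia genes, Hif1a, the oxygen-regulated transcription factor, was lower (-0.84 and -0.63). Of 13 genes of reactive astrocytes, those that astrocytes switch on after injury, Serpina3n alone was compared and was lower (-0.99 and -1.08). This protease inhibitor was at 10 CPM or more in 5 of 54 high and 8 of 54 low cells of plate 2 and in 9 of 29 (31.0%) high and 22 of 29 (75.9%) low cells of plate 3. Gfap did not pass the filters, with 4 of 54 high and 5 of 54 low cells at 10 CPM or more on plate 2 and 5 of 29 and 9 of 29 on plate 3.

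Itih3 was lower in the high cells by the 1.5-fold rule, while Agt was below 0 on both plates without passing it. Itih3 (chromosome 14, 30908572 to 30923760), a hyaluronan-binding serum protein that astrocytes outside the telencephalon make in quantity, had a median of 1988 CPM (0 to 15323, mean 2716 ± 2827 SD, n = 54) in high and 4011 CPM (2.65 to 27077, mean 5622 ± 5236, n = 54) in low cells of plate 2. On plate 3 its medians were 2222 CPM (150 to 7289, mean 2390 ± 1624, n = 29) and 3337 CPM (2.37 to 17810, mean 5101 ± 4805, n = 29). Low cells held both the lowest and the highest values of plate 3, and the log2 ratios of the means were -1.05 and -1.09. Agt, which encodes angiotensinogen, had medians of 2427 CPM (0 to 7620) in high and 4875 CPM (421 to 15713) in low cells of plate 2, and of 2914 CPM (306 to 13486) and 5513 CPM (297 to 10328) on plate 3. Its log2 ratios were -0.95 and -0.39, so that it did not reach 1.5-fold on plate 3. Of 6 compared genes that mark astrocytes outside the telencephalon, 5 were below 0 on both plates, where 27.5% of all genes were, and Itih3 alone was lower by the 1.5-fold rule. The 1 compared gene that marks astrocytes of the telencephalon, Mfge8, was below 0 on both plates too (-0.12 and -0.92). The sum of the 5 telencephalic markers was 2225 CPM on average (0 to 10939) in high and 2404 CPM (4.82 to 8392) in low cells of plate 2, and 1328 CPM (13.2 to 5928) and 2528 CPM (353 to 7378) on plate 3.

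Gjb6 (chromosome 14, 57123303 to 57133611) encodes connexin 30, a gap junction protein that couples astrocytes. It had medians of 1379 CPM (0 to 5112) in high and 2135 CPM (0 to 8330) in low cells of plate 2, and of 1467 CPM (0 to 4210) and 2380 CPM (760 to 5887) on plate 3. Nearly the whole range was shared, and the log2 ratios were -0.64 and -0.88. The other astrocyte connexin, Gja1, had -0.12 and 0.02. Of 15 compared astrocyte markers Gjb6 alone was lower and 0 were higher, with medians of 0.12 and -0.07. Of all genes compared, 5.87% were lower and 5.77% higher, and the count of these markers is near those shares.

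The glutamate transporter Slc1a3 was below 0 on both plates (-0.41 and -0.90), while Slc1a2, the other main glutamate transporter, had 0.15 and -0.18. Glul, the enzyme that turns glutamate into glutamine, was the 1 of 10 compared genes of glutamate and GABA uptake that was higher (0.76 and 0.61). In a list this small that count is near the 5.77% of all genes that were higher. Glul medians were 522 CPM in high and 217 CPM in low cells of plate 2 but 634 and 619 CPM on plate 3, where the difference of the means (892 ± 516 against 583 ± 303 CPM, SD, n = 29 each) lay in the upper part of the range. Car2, a carbonic anhydrase, had 0.57 and 0.84, just under 1.5-fold on plate 2.

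The genes with the largest ratios below 0 included a transcription factor and proteins of the cell surface. Nkx6-2 (chromosome 7, 139579376 to 139582797), a homeobox transcription factor, was at 10 CPM or more in 7 of 54 high cells of plate 2 (13.0%, exact 95% interval 5.37 to 24.9%) and in 22 of 54 low cells (40.7%, 27.6 to 55.0%). On plate 3 it was at that level in 4 of 29 high (13.8%) and 13 of 29 low cells (44.8%), and its log2 ratios were -1.92 and -1.58. Amigo2, a cell adhesion protein, was detected in 9 of 54 high and 21 of 54 low cells of plate 2 and in 2 of 29 and 7 of 29 on plate 3 (-1.70 and -2.54). A2m, a protease inhibitor also used as a marker of Bergmann glia, the astrocytes of the cerebellar cortex, was detected in 2 of 54 high and 15 of 54 low cells of plate 2 and in 2 of 29 and 6 of 29 on plate 3 (-3.41 and -3.47). Among abundant genes chosen after their values were seen, the imprinted gene Nnat, which encodes neuronatin, had -0.93 and -0.70, the fatty acid desaturase Fads2 had -0.63 and -0.95, and the vitamin C transporter Slc23a2 had -0.72 and -0.70.

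**Figure D5:**
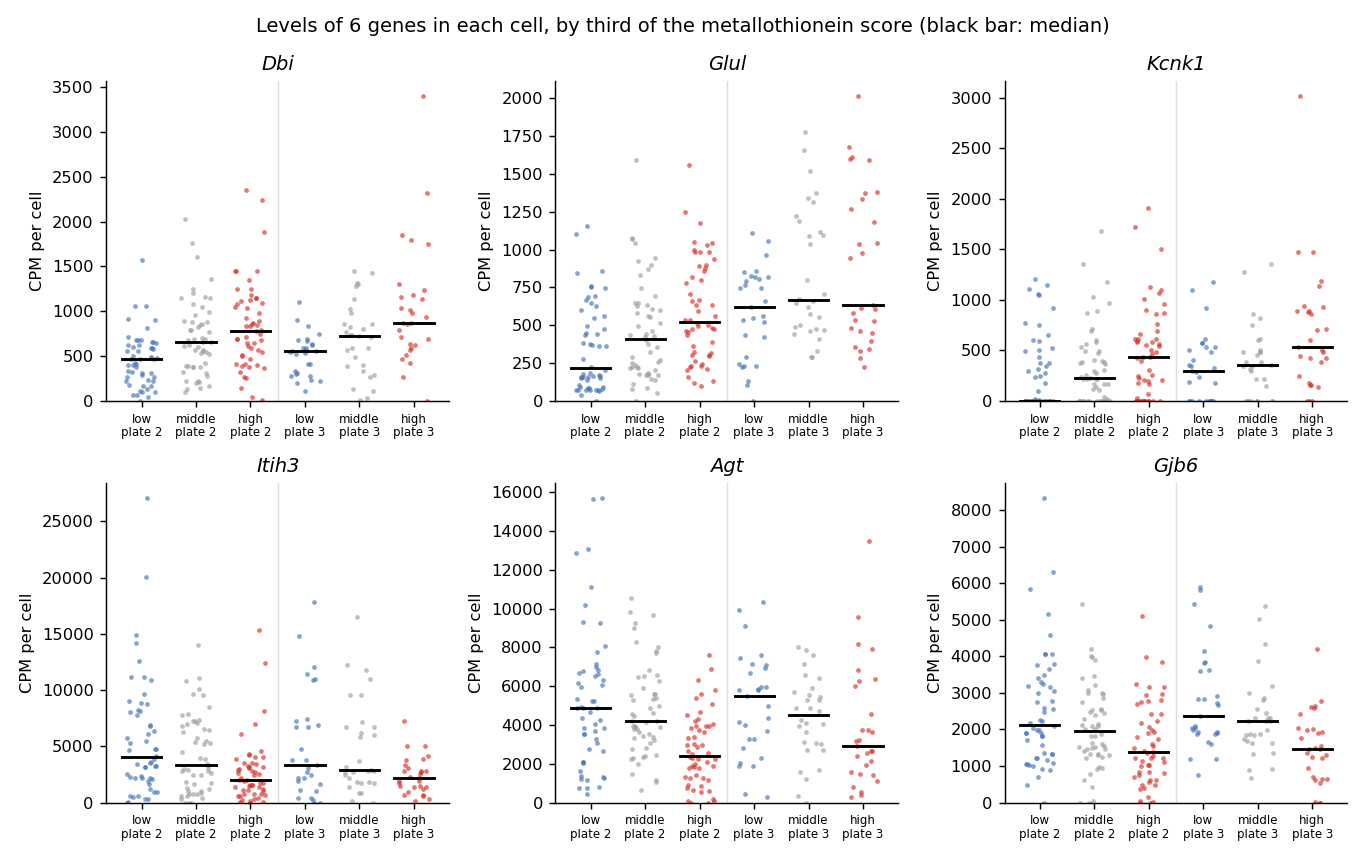
Each point is a cell, and the y axis gives CPM of 6 genes in the low, middle and high cells of each plate, with the median as a black bar. Dbi and Kcnk1 have higher and Itih3, Agt and Gjb6 lower medians in high cells on both plates, while Glul medians on plate 3 are 619 CPM in low and 634 CPM in high cells.

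The 20 genes with the largest ratios in each direction, ranked by the smaller of both plates, were sparse. The higher ones were detected in 8.40 to 42.4% of all cells (median 18.8%) and the lower ones in 9.20 to 29.6% (median 14.8%), against a median of 28.4% for all genes compared. Sel1l3 led the higher ones with log2 ratios of 2.74 and 2.44, from 13 of 54 high against 5 of 54 low cells on plate 2 and 8 of 29 against 2 of 29 on plate 3. Also among them were Fmr1, the RNA-binding protein lost in fragile X syndrome (1.75 and 1.42), Cep290, a protein of the base of the cilium (2.42 and 1.74), and Tomm40l, of the protein import channel of the outer mitochondrial membrane (1.71 and 2.18). Fmr1 was detected in 21 of 54 high and 16 of 54 low cells of plate 2, and in 8 of 29 and 7 of 29 on plate 3. For Cep290 these were 17 of 54 and 5 of 54, and 5 of 29 and 3 of 29. Mean Cep290 on plate 3 was 41.6 CPM in middle, 19.6 CPM in high and 5.17 CPM in low cells. Among the lower ones were Tbk1, a kinase of innate immune signalling, C4b, a complement component, and Lta4h, an enzyme of leukotriene synthesis (-1.91 and -2.19). Tbk1 had 50 reads in the high and 659 in the low cells of plate 2, and 0 reads in the high and 1248 in the low cells of plate 3. C4b had 129 reads in the high and 513 in the low cells of plate 2, and 2 reads in the high and 319 in the low cells of plate 3.

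Several other lists likewise had counts near 5.77% higher and 5.87% lower. Cholesterol synthesis had 0 of 16 compared genes in either direction (medians 0.04 and -0.18), and so had 16 secreted and lysosomal genes (0.03 and -0.17). Of 16 genes of glycolysis and glycogen 1 was higher, the phosphofructokinase Pfkl (4.45-fold and 1.76-fold), with list medians of 0.21 and 0.10. The reads counted for ribosomal protein genes also went with the score, but they were few. Summed over 87 genes it was 1332 ± 449 CPM (SD, n = 54; 642 to 2546) in high and 1030 ± 499 CPM (n = 54; 266 to 2947) in low cells of plate 2, and 1301 ± 623 CPM (442 to 3241) and 853 ± 276 CPM (340 to 1638, n = 29 each) on plate 3. The ranges overlapped on both plates. Spearman's correlation of this sum with the score was 0.33 over the 162 cells of plate 2 and 0.39 over the 88 of plate 3, against 0.48 and 0.36 for the respiratory chain. Only 11 of the 87 genes were compared singly, with median log2 ratios of 0.38 and 0.69. In the high cells of plate 2 the sum over all 87 was below the mean of Mt1 alone, 1576 CPM. Why the sum was so low was not tested. Of 4 compared genes that mark Gfap-rich astrocytes 0 were higher and 1 was lower, the tetraspanin Cd9 (-1.48 and -1.32). Id3 (1.74 and 0.03) and Aqp4 (0.17 and 0.19) were above 0 on both plates, and Id4 had -0.06 and 0.42. The list medians were 0.05 and 0.11. Summed over its 8 genes, the mean was 3169 CPM in high and 2737 CPM in low cells of plate 2, and 2972 and 2707 CPM on plate 3.

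Of 3 compared RNAs kept in the nucleus, 0 were higher or lower by the 1.5-fold rule. Neat1 had log2 ratios of 0.11 and 0.80, and Kcnq1ot1 had -0.38 and 0.79. Malat1, a long RNA kept in the nucleus, had medians of 32118 CPM (2539 to 169966) in high and 26839 CPM (1755 to 57510) in low cells of plate 2, and of 38602 CPM (10656 to 144296) and 24178 CPM (15904 to 40684) on plate 3. High cells reached further up than low cells on both plates, and the log2 ratios were 0.54 and 0.93, under 1.5-fold on plate 2. With Malat1, the ribosomal RNA precursor Rn45s and the metallothioneins left out of the library size, 336 genes were higher and 271 lower, and the respiratory chain count was 24 of 69.

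Markers of other cell types did not all move one way. The 12 oligodendrocyte markers had the highest sum of these lists. It was 1003 CPM on average (5.85 to 2922) in high and 1137 CPM (0 to 4409) in low cells of plate 2. On plate 3 it was 712 CPM (0 to 2574) and 787 CPM (0 to 2709). The summed level of 12 neuron markers was 265 CPM on average (0 to 2890, median 64.4) in high and 165 CPM (0 to 3545, median 17.9) in low cells of plate 2, and 340 CPM (0 to 2073) and 129 CPM (0 to 724) on plate 3. The sum of 5 Bergmann glia markers, which include A2m, was 176 CPM (0 to 1624) in high and 509 CPM (0 to 3420) in low cells of plate 2, and 141 CPM (0 to 1007) and 281 CPM (0 to 2285) on plate 3, and Wif1 of this list had no reads. The sum of 8 ependymal and choroid plexus markers was 43.2 CPM (0 to 1070) against 101 CPM (0 to 662) on plate 2 and 26.1 CPM (0 to 309) against 84.7 CPM (0 to 1191) on plate 3, and Ttr had no reads. Of the markers of other types compared, A2m, Rarres2 of the ependymal list (-0.94 and -1.47) and Cnp of the oligodendrocyte list (-0.60 and -0.67) were lower and 0 were higher. Of all genes compared, 5.87% were lower and 5.77% higher. Few members were compared: 3 for oligodendrocytes, 2 for their precursors, 2 for Bergmann glia and 1 for the ependymal list. Neurons, microglia, smooth muscle with pericytes, and fibroblasts had 1 each. The reporter's promoter is that of a smooth muscle gene. The 13 markers of smooth muscle and pericytes together summed to 128 CPM (0 to 590) in high against 138 CPM (0 to 1057) in low cells of plate 2. On plate 3 they summed to 152 CPM (4.92 to 1071) against 180 CPM (2.37 to 940). Cells with 3 or more markers of another type made up 21 of 54 high and 15 of 54 low cells of plate 2 and 10 of 29 and 11 of 29 of plate 3. Without the oligodendrocyte list these counts were 9 and 9 on plate 2 and 8 and 8 on plate 3. The part of these markers in the gene differences was not tested beyond leaving those cells out.

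Xist, the RNA of the inactive X chromosome, was at 10 CPM or more in 4 of the 250 cells. A Y-linked gene was detected without Xist in 43 of 54 high and 43 of 54 low cells of plate 2, and in 19 of 29 and 25 of 29 of plate 3.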

How the data were processed

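Single cells of mouse brain were compared by plate and by metallothionein score. The deposited count table holds raw read counts per gene and cell, whole numbers that were not normalized, per the file's values. The other deposited table gives a score for each gene and cell, which equals its count brought to 500000 in every cell and rounded by the authors, and it was not used for the ratios. The submitters' processing notes name STAR 2.4.2a and mm10. The counting tool, strand setting, annotation and cell filter were not given in the sources used here, so reads of genes that overlap or resemble each other, as the metallothioneins do, cannot be checked. Reads from Smart-seq2 carry no molecular identifiers and are not separate molecules. The intervals on shares of cells treat the cells as independent and cover counting error only. All 250 columns were matched to a sample, with 0 unmatched, and no cell was removed. No doublet caller was run.

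The levels are CPM, computed from the counts. Calculations used Python 3.11.15, numpy 2.4.6, pandas 2.3.3, scipy 1.17.1 and matplotlib 3.10.9, and the calculation of ratios and calls was tested on simulated data. The filters (mean of 20 CPM on each plate, no cell with 10% of the sum), the pseudocount of 1 and the fold of 1.5 belong to the comparison as designed, and the cells' rule, the gene lists and these settings were chosen with earlier results of these data known. Genes were named if they were Mt1, Mt2 or Mt3, among the 20 with the largest ratios in each direction, or in a list, apart from those said to be chosen after their values were seen. Detection means 10 CPM or more. Gene positions and exonic lengths come from GENCODE M21 (GRCm38), the assembly that mm10 names, and 95.8% of the genes compared had a length. Promoters come from RefSeq (GRCm38.p6), and all 3 metallothioneins were matched by symbol. Alternatives changed the statistic (to a difference of mean log2 values), the depth (thinned to 100000 reads), the score's genes and its correction for depth, genes detected or short genes, the shares of cells, the filters, the pseudocount, the library size, the fold, the plate and the cells left out. Single ribosomal protein genes are not reported here.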

Additional observations from a re-analysis of the deposited data

How the results depend on the processing

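Of the 5076 genes compared, 293 were higher and 298 lower. Splitting each plate at its median score gave 166 higher and 185 lower, a minimum of 50 CPM gave 144 and 139, and a fold of 2 gave 72 and 83. Plate 2 alone gave 972 and 938, and plate 3 alone 1187 and 1359, since no agreement was asked for. The respiratory chain count of 24 was 9 with the score from Mt1 and Mt2, 7 with the split at the median, 5 at a fold of 2, 40 on plate 2 alone and 15 without cells that had markers of another type. Under alternatives added after the data were seen it was 13 with Mt1 alone and 2 with Mt2 alone. With the score corrected for the share of reads in short genes, also added then, it was 13. Those short genes include members of the chain. Under the score from Mt2 alone the smaller log2 ratio of Cryab was -0.30 and that of Uqcrq was -0.28, the reverse of their directions with the full score. For the changes of score, split and cells the cause was not tested. The difference of mean log2(CPM + 1) gave 217 higher and 311 lower, of which 103 and 123 were among the genes of the main rule. The share of genes with the same direction lay between 51.4% and 54.0% under every alternative that gave it. The calls of Nkx6-2 stood in 23 of 23 alternatives, those of A2m in 22 of 22, of Itih3 in 21, of Dbi in 18, of Gjb6 in 14 and of Glul in 11 of 23. Some alternatives could not undo a call, so these counts overstate how firm the calls are. A gene called on both plates is also called on either plate alone, and the changed filters leave a kept gene's ratio as it was. Taking z values over all cells gave the same high and low cells. Among genes of 20 to 50 CPM the plates shared a direction in 51.4%, and among those of 500 to 1000 CPM in 52.0%. The part of depth in this was not tested. No paired analysis was possible because the labels number the cells but name no animal and nothing else that could pair high with low cells.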
